A study of Mus musculus with 13 samples.

Results

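The 10 genes described here encode the Jun proteins (Jun, Junb, and Jund), the Fos proteins (Fos, Fosb, Fosl1, and Fosl2), the related factor Atf3, and the zinc-finger factors Egr1 and Egr3. They form a list of names, with no threshold on expression, and are 10 of the 40787 genes in the count table. The 13 libraries, 1 per nerve, are RNA-seq profiles of sciatic nerve from mice backcrossed to C57BL/6, the strain on the labels, at 5 d post-crush (dpc). All mice were homozygous for floxed Rptor alleles, which encode the mTORC1 subunit Raptor, and received tamoxifen at 2 months of age, followed by a unilateral crush 2 months later. Controls lacked Cre and gave 3 injured nerves (control injured) and 3 uninjured nerves of the other side (control contralateral). RaptorKO mice also carried a tamoxifen-inducible CreERT2 transgene active in Schwann cells (SCs), and gave 3 injured and 4 contralateral nerves. Injured and contralateral nerves of 1 genotype with the same number were taken to come from the same mouse, and replicate 4 of the RaptorKO contralateral nerves had no injured partner here. RNA came from the nerve without its epineurium, distal to the crush in injured nerves, so every library mixes SC transcripts with those of other cells. In such bulk samples, fewer cells of a type and less RNA per cell cannot be told apart.

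Jun and Fos proteins are basic leucine zipper factors that bind DNA in pairs and together form AP-1. Jun proteins pair with themselves or with Fos proteins, whereas Fos proteins need a Jun partner. Atf3 pairs with Jun proteins and binds related sites. Many of these genes are immediate early genes, which cells transcribe within minutes of a stimulus without new protein synthesis, often through MAP kinases, serum response factor, and CREB. In peripheral nerve, c-Jun (the product of Jun) is known as the factor that drives SCs toward the repair state after injury, and it antagonizes Egr2 (Krox20), the factor of myelinating SCs.

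Libraries held 8200458 to 13581775 counts. Levels are given as CPM (counts divided by the TMM-scaled library total and set to a common total). A gene was tested where at least 2 libraries of a comparison held 50 counts or more, and was called at an adjusted p below 0.05 (quasi-likelihood test of edgeR, Benjamini-Hochberg method) with a fold change above 1.2. Rptor had 43.6 to 52.2 CPM in control contralateral and 22.1 to 27.8 CPM in RaptorKO contralateral nerves, and 35.0 to 49.5 CPM in control injured and 23.3 to 28.8 CPM in RaptorKO injured nerves. It was therefore lower in every library labelled RaptorKO than in every control library of the same surgery. The pair of libraries named control replicate 3 stood apart from the other 11 in sex-linked genes, with 15017 counts of Xist in the contralateral and 14462 in the injured one. They held 10 and 20 counts of Y-linked genes, against 1456 to 2338 in the other 11. This is the pattern of a female mouse, and no RaptorKO library had it, so sex was not balanced between genotypes. The part of sex in the genotype differences was not tested. None of the 10 SC markers was at 0 in any group, and the 8 skeletal muscle markers summed to at most 28.2 CPM in any library.

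Of the members, 7 had an entry in the RefSeq promoter set used here (GRCm38.p6, 250 bases before to 50 bases after an annotated start). These were Jun, Junb, Jund, Fos, Fosb, Fosl2, and Atf3, so no motif was searched for Fosl1, Egr1, or Egr3. The 130 bases before the start are printed 5' to 3' on the gene's own strand for Jun, Fos, and Atf3, 1 gene each of the Jun, Fos, and ATF groups, all called higher with injury. These are chr4:95052223-95052352 (minus strand) for Jun, chr12:85473760-85473889 (plus strand) for Fos, and chr1:191183334-191183463 (minus strand) for Atf3, whose entry starts inside the annotated span of the gene. Capitals mark the CRE core ACGTCA or its complement TGACGT, the Jun-ATF site TGACATCA, and the TATA box TATAAA.
Jun: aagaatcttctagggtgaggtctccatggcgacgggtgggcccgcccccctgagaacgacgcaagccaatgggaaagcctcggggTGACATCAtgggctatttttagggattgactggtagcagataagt
Fos: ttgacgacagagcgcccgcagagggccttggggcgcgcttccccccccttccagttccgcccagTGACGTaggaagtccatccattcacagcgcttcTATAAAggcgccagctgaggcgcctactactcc
Atf3: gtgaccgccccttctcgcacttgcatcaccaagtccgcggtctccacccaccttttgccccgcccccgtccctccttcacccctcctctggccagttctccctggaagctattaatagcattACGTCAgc
Counted backward from -1, the last base before the start, Jun had TGACATCA from -45 to -38. Fos had a TATA box from -33 to -28 and a CRE core on the other strand from -66 to -61. Atf3 had a CRE core from -8 to -3. On both strands, 3.62% of the 32851 windows of all genes in the set held TGACATCA, 7.51% the CRE core, and 13.6% TATAAA. The AP-1 site TGANTCA, present in 7.81% of all windows, and the CArG box bound by serum response factor, present in 1.63%, matched none of the 7 member windows. Sites outside the windows were not searched. For Jund the 130 bases before the start of the entry end at 70697738, ahead of the annotated gene start at 70698949. The Egr site GCGNGGGCG, present in 5.55% of all windows, matched in Fosl2 from -79 to -71 and in Fosb from -50 to -42. These matches overlap no other motif searched and describe the letters of these windows only.

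At rest, Jund was the most abundant member per exon length, and after injury Jun was. In control contralateral nerves the mean was 41.4 CPM per kb of exon for Jund, 14.1 for Jun, 5.19 for Atf3, 5.02 for Fosl2, 4.18 for Junb, 2.57 for Egr1, 2.47 for Fos, 0.397 for Egr3, 0.206 for Fosb, and 0.0562 for Fosl1. The ranges over libraries overlapped for the neighbors Atf3 and Fosl2, Fosl2 and Junb, Egr1 and Fos, and Egr3 and Fosb, so their order is not resolved. In control injured nerves the order was Jun at 99.9 CPM per kb, Atf3 at 79.7, Fos at 40.2, Jund at 39.4, Fosl1 at 23.9, Fosl2 at 22.3, Junb at 16.2, Egr1 at 4.99, Egr3 at 2.69, and Fosb at 0.376. Here the ranges overlapped for Jun and Atf3, Fos and Jund, and Fosl1 and Fosl2. RaptorKO injured nerves had the same first 5 genes in the same order, followed by Junb at 21.3 and Fosl2 at 17.7 CPM per kb, whose ranges did not overlap. In RaptorKO contralateral nerves Atf3 stood in place 7 of 10 at 2.27 CPM per kb, against place 3 in control contralateral nerves.

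**Figure D1:**
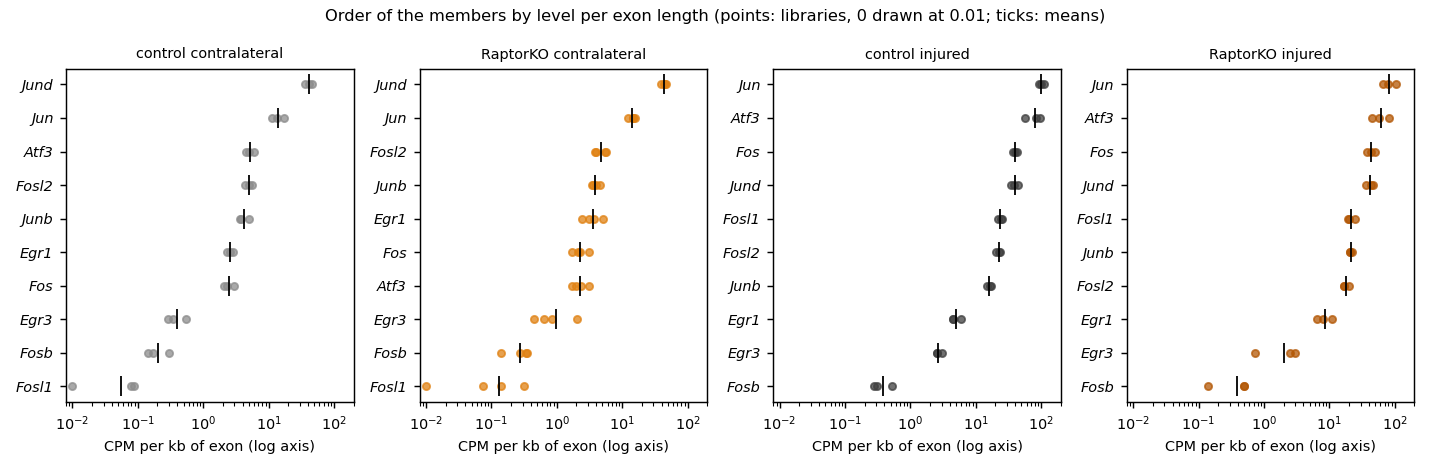
Level of each member in CPM per kb of exon (log axis) for the 4 groups. Points are libraries and ticks are group means, with members sorted by their mean. Jund led both contralateral groups and Jun both injured groups, with Fosl1 last in both contralateral groups and in place 5 in both injured groups.

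The first question was how the crush changed the members in each genotype. In controls 8 of the 9 tested members were higher in injured than in contralateral nerves and 0 were lower, also at an unadjusted p below 0.05 and with DESeq2 or edgeR's exact test. Among all 12430 genes tested, 32.4% were called higher and 32.9% lower, and the groups did not overlap for 70.9% of genes, as for 8 of the 9 tested members. In RaptorKO mice 7 of 9 tested members were higher and 0 were lower with the same tools, against 30.5% and 28.5% of 12515 genes, and the groups did not overlap for 7 of 9 members and 60.7% of genes. Fosl1, Fos, and Atf3 had the largest differences in both genotypes, and Jund was not called in either. The same control injured and RaptorKO injured libraries also enter the genotype comparisons given further on. SC markers summed to 78983 to 87570 CPM in control contralateral and 5444 to 6390 CPM in control injured nerves (7 of 10 lower, 2 higher), and macrophage markers to 145 to 165 and 2528 to 3157 CPM (10 of 10 higher). In RaptorKO mice the SC sum went from 66443 to 82548 CPM to 4171 to 5076 CPM (6 of 10 lower, 2 higher) and the macrophage sum from 230 to 298 CPM to 1616 to 3387 CPM (10 of 10 higher). None of these markers was at 0 in a group. Neutrophil markers summed to at most 4.32 CPM in contralateral and 25.7 to 58.7 CPM in injured nerves, with the defining marker Ly6g at 0 in all groups. The part of these cells in the members' differences was not tested.

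**Figure D2:**
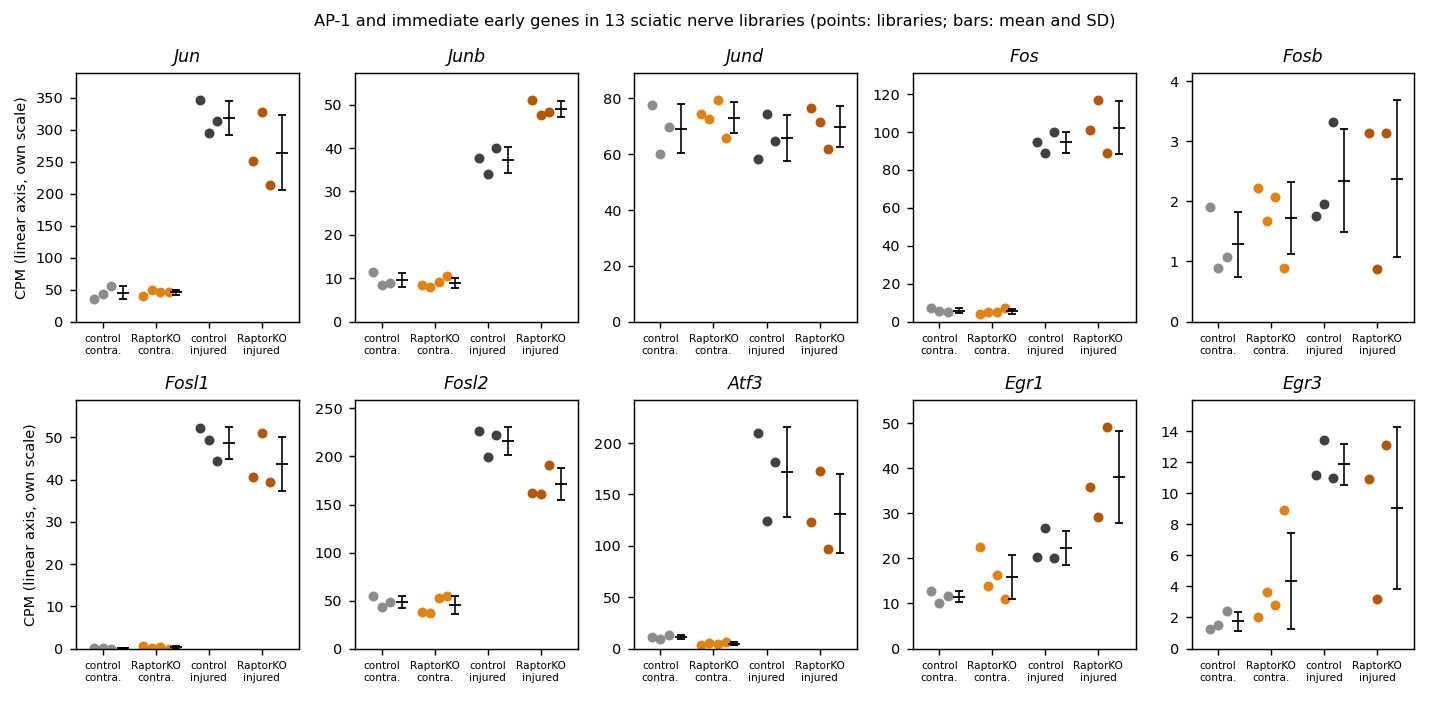
CPM of the 10 members in each library (points) with the group mean and SD (bars), on a linear axis with its own scale per gene. Jun, Junb, Fos, Fosl1, Fosl2, and Atf3 lay higher in every injured than in every contralateral library, while Jund lay between 58.3 and 79.5 CPM in all 13.

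Jun (ENSMUSG00000052684, chr4:95049034-95052222, minus strand, a single exon) had 36.0, 43.4, and 55.8 CPM in control contralateral and 347, 295, and 314 CPM in control injured nerves. In RaptorKO mice it had 39.3, 49.7, 47.0, and 46.1 CPM in contralateral and 252, 328, and 213 CPM in injured nerves. Every injured library lay above every contralateral one, and the coefficient of variation was 22.2% in both control contralateral and RaptorKO injured nerves, against 9.72% and 8.35% in the other 2 groups. The log2 fold change with injury was 2.78 in controls (standard error [SE] 0.146, adjusted p = 9.86e-09, edgeR) and 2.51 in RaptorKOs (SE 0.146, adjusted p = 2e-07, edgeR). On the other strand Jun overlaps the antisense gene Junos, which held at most 15 counts in any library. The sources do not say if the counting used strand, which matters for each overlapping pair named here.

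Junb (ENSMUSG00000052837, chr8:84974484-84978718, minus strand), whose protein is a weaker activator than c-Jun at many AP-1 sites, had 11.5, 8.51, and 8.86 CPM in control contralateral and 37.8, 34.0, and 39.9 CPM in control injured nerves. In RaptorKO contralateral nerves it had 8.34, 7.86, 9.16, and 10.4 CPM, and in RaptorKO injured nerves 51.1, 47.6, and 48.2 CPM. Injured and contralateral libraries did not overlap, and all 3 RaptorKO injured libraries lay above the control injured ones. The log2 fold change with injury was 1.91 in controls (SE 0.160, adjusted p = 6.18e-07, edgeR) and 2.43 in RaptorKOs (SE 0.137, adjusted p = 1.58e-07, edgeR). Junb overlaps Prdx2 on the other strand, which held up to 1595 counts.

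Jund (ENSMUSG00000071076, chr8:70698949-70700616, plus strand, a single exon) is the Jun gene that most resting cells transcribe. It had 60.1 to 77.6 CPM in control contralateral, 65.9 to 79.5 in RaptorKO contralateral, 58.3 to 74.4 in control injured, and 61.8 to 76.5 CPM in RaptorKO injured nerves, so all 4 groups overlapped. Its log2 fold change with injury was -0.12 in controls (95% confidence interval -0.38 to 0.15) and -0.09 in RaptorKOs (-0.33 to 0.15), and with total counts in place of TMM scaling these were 0.08 and 0.07.

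Fos (ENSMUSG00000021250, chr12:85473890-85477273, plus strand), the founding Fos gene, had 7.06, 5.43, and 4.97 CPM in control contralateral and 95, 88.7, and 100 CPM in control injured nerves. In RaptorKO mice it had 4.01, 5.27, 4.91, and 7.24 CPM in contralateral and 101, 117, and 88.9 CPM in injured nerves. Injured nerves were thus well above contralateral ones in both genotypes, and the 2 injured groups overlapped. The fold change was 15.7 in controls (95% confidence interval 12.6 to 19.6, adjusted p = 5e-10, edgeR) and 18.9 in RaptorKOs (14.3 to 25.0, adjusted p = 2.8e-08, edgeR).

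Fosl1 (ENSMUSG00000024912, chr19:5447547-5455946, plus strand) encodes Fra-1, which lacks the transactivation domain of Fos and is itself an AP-1 target. It was almost undetected at rest, with 2, 2, and 0 counts in control contralateral and 6, 2, 3, and 0 counts in RaptorKO contralateral nerves. After injury it had 564, 528, and 455 counts in controls (52.1, 49.3, and 44.5 CPM) and 452, 646, and 429 counts in RaptorKOs (40.5, 51.0, and 39.5 CPM). From the summed counts, scaled by library size, injured nerves had 410 times the contralateral level in controls (95% exact interval 160 to 1510) and 164 times in RaptorKOs (91.5 to 330). These intervals cover counting error only, and the fitted log2 fold changes were 8.50 (SE 0.301, adjusted p = 3.85e-10, edgeR) and 7.26 (SE 0.368, adjusted p = 7.79e-08, edgeR). Fosl1 overlaps Ccdc85b on the other strand, with at most 338 counts.

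Fosl2 (ENSMUSG00000029135, chr5:32135801-32157842, plus strand) encodes Fra-2, the other Fos protein without that domain. It had 54.7, 42.9, and 48.1 CPM in control contralateral and 227, 199, and 222 CPM in control injured nerves. The RaptorKO contralateral libraries held 38.1, 36.7, 52.7, and 54.8 CPM and the RaptorKO injured ones 162, 161, and 191 CPM. Each injured library was above each contralateral one, and the RaptorKO injured libraries were all below the control injured ones. The log2 fold change with injury was 2.11 in controls (SE 0.104, adjusted p = 5.89e-09, edgeR) and 1.89 in RaptorKOs (SE 0.155, adjusted p = 2.36e-06, edgeR).

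Fosb (ENSMUSG00000003545, chr7:19302696-19310051, minus strand) did not reach 50 counts in any library and was left out by the filter in every comparison. With no filter or the default one of edgeR it was not called either, with adjusted p of 0.169 to 0.994 (edgeR) in the injury and genotype comparisons. It had 7 to 35 counts per library, or 0.868 to 3.32 CPM, and every pair of groups overlapped. The ratio of summed counts for injured against contralateral nerves was 1.82 in controls (95% exact interval 1.24 to 2.72, counting error only) and 1.31 in RaptorKOs (0.944 to 1.83). A two-sided exact permutation test over libraries gave p = 0.2 in controls and p = 0.629 in RaptorKOs, and with 3 against 3 or 4 against 3 libraries this test cannot give less than 0.1 or 0.0571.

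Atf3 (ENSMUSG00000026628, chr1:191170296-191218039, minus strand) is a stress-induced factor and a widely used marker of nerve injury. It had 11, 9.72, and 12.9 CPM in control contralateral and 210, 124, and 182 CPM in control injured nerves. In RaptorKO mice it had 3.7, 5.04, 4.25, and 6.61 CPM in contralateral and 123, 173, and 97.3 CPM in injured nerves. Atf3 was thus higher in every injured library, and every RaptorKO contralateral library lay below every control contralateral one. The fold change with injury was 14.9 in controls (95% confidence interval 11.1 to 20.1, adjusted p = 6.47e-09, edgeR) and 26.5 in RaptorKOs (log2 fold change 4.73, SE 0.235, adjusted p = 6.68e-08, edgeR).

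Egr1 (ENSMUSG00000038418, chr18:34859823-34864984, plus strand), a serum-inducible zinc-finger factor, had 12.7, 10.2, and 11.7 CPM in control contralateral and 20.3, 26.7, and 20.1 CPM in control injured nerves. RaptorKO contralateral nerves held 22.5, 13.9, 16.3, and 10.9 CPM and RaptorKO injured nerves 35.8, 29.2, and 49.2 CPM. Injured libraries lay above contralateral ones within each genotype, and all RaptorKO injured libraries above all control injured ones. The log2 fold change with injury was 0.91 in controls (SE 0.175, adjusted p = 0.000636, edgeR) and 1.23 in RaptorKOs (SE 0.243, adjusted p = 0.00136, edgeR), the smallest of the called members in controls.

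Egr3 (ENSMUSG00000033730, chr14:70077203-70082614, plus strand), a relative needed for muscle spindles, had 1.27, 1.54, and 2.44 CPM in control contralateral and 11.2, 13.4, and 11 CPM in control injured nerves. RaptorKO contralateral nerves held 2.01, 3.66, 2.83, and 8.89 CPM, and RaptorKO injured nerves 10.9, 3.16, and 13.1 CPM. Control groups were well apart, whereas in RaptorKOs contralateral replicate 4 was high, injured replicate 2 was low, and the groups overlapped. Egr3 rose in controls by 2.72 on the log2 scale (SE 0.298, adjusted p = 6.58e-06, edgeR). In RaptorKOs the log2 difference was 1.05 (SE 0.55, adjusted p = 0.125, edgeR), and it was called without RaptorKO injured replicate 2 (1.46, adjusted p = 0.0285, edgeR) and without RaptorKO contralateral replicate 4 (1.63, adjusted p = 0.021, edgeR). With a replicate block, which compares the 2 nerves of each mouse, Egr3 was also called in RaptorKOs (1.46, SE 0.498, adjusted p = 0.0312, edgeR), which made 8 of 9 members higher, against 29.5% of genes in that fit.

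The second question was whether the loss of Raptor changed the members in injured nerves. Egr1 was the single member called higher in RaptorKO injured nerves (1 of 9 tested, against 4.09% of 12040 genes), and 0 members were called lower (against 4.44%). At an unadjusted p below 0.05, 1 member was lower (Fosl2), and DESeq2 and edgeR's exact test called 0 lower and 2 higher. The groups did not overlap for 3 of the 9 tested members (Junb, Fosl2, and Egr1), against 26.2% of genes. Egr1 was 1.72-fold higher (95% confidence interval 1.28 to 2.31, log2 fold change 0.78, SE 0.195, adjusted p = 0.0304, edgeR), with 38.1 ± 10.2 CPM in RaptorKO injured against 22.4 ± 3.75 CPM in control injured nerves (mean ± SD, n = 3 each). The call was lost without control injured replicate 1 or 3 (adjusted p = 0.103 and 0.118, edgeR), without RaptorKO injured replicate 1 or 3 (adjusted p = 0.0798 and 0.0764, edgeR), and in a joint fit of all 13 libraries (adjusted p = 0.0521, edgeR).

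Jun mRNA did not differ detectably between the injured groups. Its mean was 319 ± 26.6 CPM in control injured and 264 ± 58.6 CPM in RaptorKO injured nerves (SD, n = 3 each), and the library of RaptorKO injured replicate 2 lay between the control libraries. The log2 fold change was -0.25 (SE 0.155, adjusted p = 0.411, edgeR), with a 95% confidence interval for the ratio of 0.665 to 1.07. Leaving out 1 library at a time or changing the analysis moved it between -0.44 and -0.11, and it was not called in any of the 14 alternatives run.

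Among the other AP-1 genes, Junb and Fosl2 pointed in opposite directions without passing the test. Junb had a log2 difference of 0.41 (95% confidence interval 0.15 to 0.68, adjusted p = 0.0579, edgeR), which was called by edgeR's exact test (adjusted p = 0.038), by DESeq2 (adjusted p = 0.0493), and without a scaling factor (adjusted p = 0.0449, edgeR). Fosl2 had -0.32 (-0.56 to -0.07, adjusted p = 0.114, edgeR) and was not called in any of its 14 alternatives. Atf3 had -0.36 (-0.85 to 0.12), Fosl1 -0.13 (-0.43 to 0.16), Fos 0.13 (-0.14 to 0.41), and Jund 0.11 (-0.17 to 0.39), with every pair of groups overlapping. Egr3 had -0.38 (-1.23 to 0.47), or 0.03 without RaptorKO injured replicate 2. Fosb, not tested, had a ratio of summed counts of 0.990 (95% exact interval 0.712 to 1.38, counting error only).

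Markers of several cell types moved with genotype in the same injured nerves. SC markers summed to 5444 to 6390 CPM in control injured and 4171 to 5076 CPM in RaptorKO injured nerves, which did not overlap (2 of 10 lower, 0 higher). Endothelial markers summed to 364 to 523 CPM in control injured and 726 to 1081 CPM in RaptorKO injured nerves (8 of 8 higher), and pericyte and smooth muscle markers to 477 to 585 and 931 to 1273 CPM (6 of 8 higher). Mast cell markers summed to 8.88 to 53.3 and 111 to 204 CPM (5 of 8 higher), fibroblast markers to 6515 to 9470 and 8415 to 13179 CPM (3 of 9 higher), and macrophage markers to 2528 to 3157 and 1616 to 3387 CPM (0 of 10 called). Erythrocyte markers summed to 6.01 to 24.7 and 46.7 to 75.8 CPM (3 of 5 higher). None of these markers was at 0 in either group, and their part in the difference of Egr1 was not tested.

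**Figure D3:**
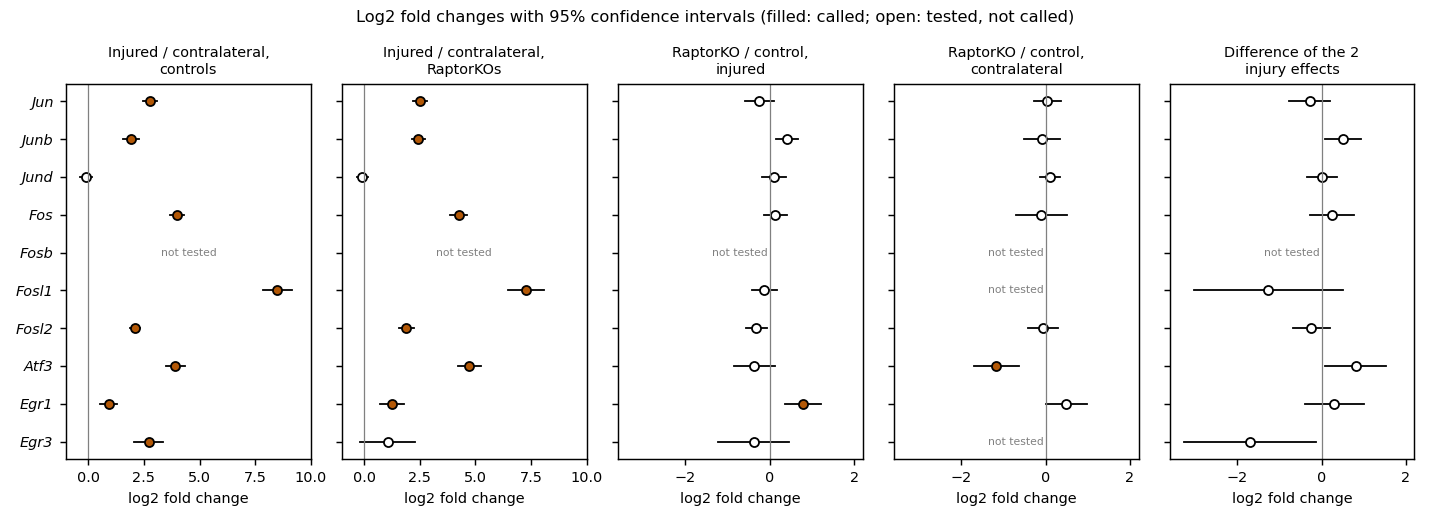
Log2 fold changes (points) with 95% confidence intervals (lines) for the 10 members in the injury and genotype comparisons and for the difference between the injury effects. Filled points were called and open points were tested but not called. Injury effects reached 8.50 for Fosl1 in controls, while the called genotype differences were 0.78 for Egr1 in injured and -1.17 for Atf3 in contralateral nerves.

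In contralateral nerves, which address Raptor loss without a crush, 7 members were tested. Atf3 was called lower in RaptorKOs (1 of 7, against 5.68% of 11878 genes) and 0 members were called higher (against 4.49%). No member was higher at an unadjusted p below 0.05, with DESeq2, or with edgeR's exact test. The groups did not overlap for 1 of the 7 members, against 23.7% of genes. Atf3 had 4.90 ± 1.26 CPM in RaptorKO contralateral (SD, n = 4) and 11.2 ± 1.58 CPM in control contralateral nerves (SD, n = 3), a ratio of 0.445 (95% confidence interval 0.308 to 0.643, log2 fold change -1.17, SE 0.239, adjusted p = 0.0128, edgeR). The adjusted p was 0.0514 without control contralateral replicate 1 and 0.0615 without replicate 3 (edgeR), and the ratio stayed below 1 in all 15 alternatives, with log2 values of -1.34 to -1.05.

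No other member passed the test in contralateral nerves. Jun had a mean of 45.1 CPM in control and 45.5 CPM in RaptorKO contralateral nerves, with a 95% confidence interval for the ratio of 0.819 to 1.29. Egr1 had a log2 difference of 0.49 (95% confidence interval -0.003 to 0.98, adjusted p = 0.204, edgeR). The log2 differences of Junb, Jund, Fos, and Fosl2 were -0.08, 0.11, -0.10, and -0.07. Egr3, Fosb, and Fosl1 were not tested. Egr3 held 58 counts in the 3 control and 167 in the 4 RaptorKO contralateral libraries, a ratio of 2.36 (95% exact interval 1.74 to 3.24, counting error only), with 70 of the 167 counts in RaptorKO contralateral replicate 4. The libraries of the 2 groups overlapped for Egr3 (two-sided exact permutation test, p = 0.114), and without a filter on low counts its adjusted p was 0.127 (edgeR). In the same nerves macrophage markers summed to 145 to 165 CPM in controls and 230 to 298 CPM in RaptorKOs (5 of 10 higher), fibroblast markers to 6860 to 7679 and 9687 to 13201 CPM (3 of 9 higher), and SC markers to 78983 to 87570 and 66443 to 82548 CPM (3 of 10 lower, 1 higher). Mast cell markers summed to 13.6 to 60.7 and 83.8 to 146 CPM (2 of 8 higher), and erythrocyte markers to 73.2 to 138 and 138 to 253 CPM (2 of 5 higher). None of these was at 0 in either group, and their part in the difference of Atf3 was not tested.

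Whether the injury effect itself differed between genotypes was tested as an interaction in 1 fit of all 13 libraries. Of 9 tested members, 0 had a called difference in either direction with edgeR's quasi-likelihood test or DESeq2, against 1.07% of 12851 genes with a more positive and 1.41% with a more negative injury effect in RaptorKOs. These fits left aside that each injured nerve shared a mouse with a contralateral one. With a replicate block within each genotype, Atf3 had a more positive injury effect in RaptorKOs (0.99, SE 0.216, adjusted p = 0.0342, edgeR), 1 of 9 members against 1.27% of genes, and no other member was called. Between genotypes, Atf3 was called lower in RaptorKO contralateral nerves (log2 fold change -1.17). It was not higher in RaptorKO injured nerves (-0.36, not called). At an unadjusted p below 0.05 without the block, Junb and Atf3 were more positive and Egr3 more negative. The log2 difference was 0.50 for Junb (95% confidence interval 0.07 to 0.93, adjusted p = 0.258, edgeR), 0.81 for Atf3 (0.09 to 1.53, adjusted p = 0.276, edgeR), and -1.69 for Egr3 (-3.25 to -0.13, adjusted p = 0.3, edgeR). For Jun it was -0.29 (-0.76 to 0.19, adjusted p = 0.652, edgeR), for Fosl2 -0.24 (-0.68 to 0.19), for Egr1 0.30 (SE 0.328), and for Fos 0.25 (-0.28 to 0.77).

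Within groups some members shared their highest or lowest library, but the members did not all rise and fall together. Correlation between members was not tested. Among RaptorKO injured nerves, replicate 2 held the highest Jun, Fos, Fosl1, and Atf3 and the lowest Junb, Fosl2, Egr1, and Egr3 of the 3 libraries. Replicate 3 was the reverse for 7 of the 9 members tested across all libraries, with the lowest Jun, Fos, Fosl1, and Atf3 and the highest Fosl2, Egr1, and Egr3. Egr3 there was 1.24 below its group mean on the log2 CPM scale in replicate 2 and 0.75 above it in replicate 3, while Jun was 0.33 above and 0.29 below. In RaptorKO contralateral nerves, replicate 4 held the highest Junb, Fos, Fosl2, Atf3, and Egr3 and the lowest Jund, Fosl1, and Egr1. In the 3 control contralateral nerves, replicate 1 held the highest level of 6 of 9 members and replicate 2 of 0. Among control injured nerves, replicate 1 held the highest Jun, Fosl1, Fosl2, and Atf3. Replicate 2 there held the lowest Jun, Junb, Fos, Fosl2, and Atf3 and the highest Jund, Egr1, and Egr3. RaptorKO injured replicate 2 was the deepest library of its group with 11734576 counts, against 10445719 and 10286741, and RaptorKO contralateral replicate 4 the shallowest of all with 8200458. The part of depth in these orders was not tested.

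**Figure D4:**
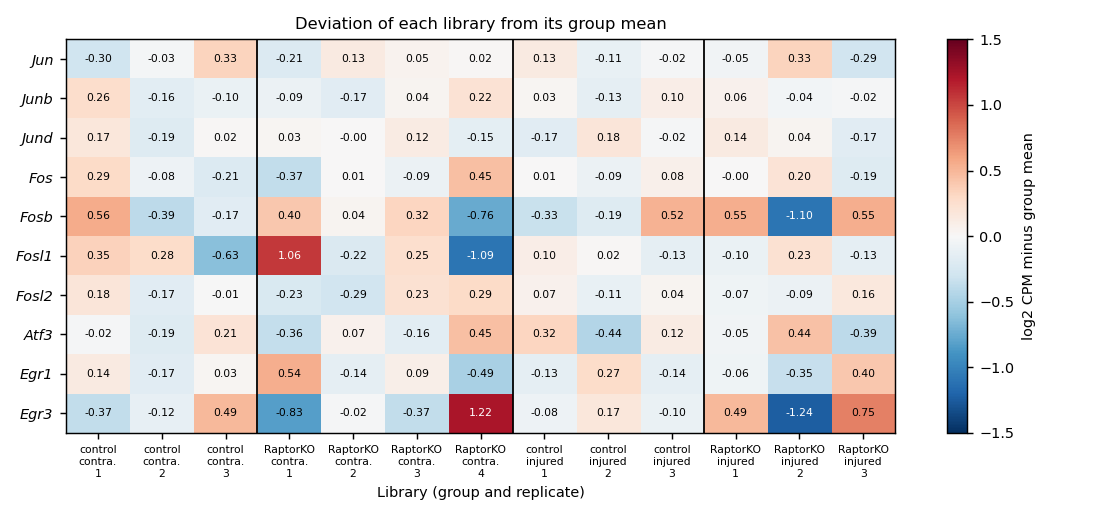
Log2 CPM of each member in each library minus the mean of its group, with red above and blue below the mean. RaptorKO injured replicate 2 was above the mean for Jun (0.33) and Atf3 (0.44) and below it for Egr3 (-1.24) and Fosb (-1.10), and RaptorKO contralateral replicate 4 was highest for Egr3 (1.22).

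Other genes of the pathway were described from lists of names. Of 40 further immediate early genes, 37 were tested with injury. In controls 19 were higher and 11 lower with a median log2 fold change of 0.60, and in RaptorKOs 24 were higher and 8 lower with a median of 0.83, where the medians of all tested genes were -0.002 and 0.028 and 32.4% and 30.5% were higher and 32.9% and 28.5% lower. Gadd45a, a growth arrest and DNA damage gene, had 7.73 ± 1.36 CPM in control contralateral and 220 ± 24.3 CPM in control injured nerves (SD, n = 3 each), and rose by 4.78 on the log2 scale. Nr4a2, an orphan nuclear receptor gene, had 144 ± 13.2 and 37.3 ± 2.05 CPM in the same groups, and fell by 1.99 on the log2 scale. In injured nerves 9 of the 37 were higher and 1 was lower in RaptorKOs, against 4.09% and 4.44% of all genes, with a median of 0.22 beside 0.001 for all genes. Klf4, a Krüppel-like factor gene, had 47.7 ± 2.91 CPM in RaptorKO injured and 14.8 ± 3.10 CPM in control injured nerves (log2 fold change 1.71, SE 0.159, adjusted p = 0.000193, edgeR), a call kept in all 14 alternatives. Gadd45a was the one that was lower, with 91.0 ± 34.3 against 220 ± 24.3 CPM (log2 fold change -1.25, SE 0.216, adjusted p = 0.00536, edgeR), also called in all 14. Klf2 (0.95) and Ccn2 (0.91) were next in size, each called in 11 of 14 alternatives and lost without control injured replicate 1 or 2 or RaptorKO injured replicate 1. In the same RaptorKO injured nerves 8 of 8 endothelial and 6 of 8 pericyte and smooth muscle markers were called higher. The part of these cells in the differences of the immediate early genes was not tested. In contralateral nerves 2 of 34 tested were higher in RaptorKOs and 0 lower, against 4.49% and 5.68% of all genes. The 2 were Nfkbia (0.39) and Zfp36 (0.36), called in 10 and 9 of 15 alternatives. Both were lost without control contralateral replicate 1 or 2 or RaptorKO contralateral replicate 1 or 2, and Zfp36 also without control contralateral replicate 3.

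Egr2 and Nab1, which encodes a co-regulator of Egr proteins, were lower after injury in both genotypes. Egr2 had 407 ± 24.3 CPM in control contralateral and 38.5 ± 2.48 CPM in control injured nerves (SD, n = 3 each), and its log2 fold change was -3.45 (SE 0.107, adjusted p = 1.48e-10, edgeR). In RaptorKOs it had 312 ± 46.7 CPM in contralateral (n = 4) and 44.9 ± 1.56 CPM in injured nerves (n = 3), and the log2 fold change was -2.82 (SE 0.131, adjusted p = 4.44e-08, edgeR). Nab1 fell with injury by 1.27 on the log2 scale in controls and by 1.10 in RaptorKOs. Nab2 was called lower in RaptorKOs alone (-0.71, against -0.20 in controls, with an adjusted p of 0.17 for the interaction, edgeR). Between genotypes 0 of the 3 tested were called in injured nerves (0 at an unadjusted p below 0.05, edgeR). In contralateral nerves 1 of 3 tested was higher in RaptorKOs, against 4.49% of all genes. This was Nab2 (0.47, adjusted p = 0.0156, edgeR), a call lost without control contralateral replicate 1 or 2. Egr4 was not tested.

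Of 17 other basic leucine zipper genes whose proteins can pair with Jun or Fos proteins or oppose them, 14 were tested with injury in controls and 15 in RaptorKOs. In controls 4 were higher and 6 lower (median -0.03), and in RaptorKOs 7 were higher and 4 lower (median 0.24). The shares over all genes were 32.4% higher and 32.9% lower in controls and 30.5% and 28.5% in RaptorKOs. Maf, a large Maf factor gene, fell by 1.45 on the log2 scale in controls and 1.30 in RaptorKOs. Between genotypes, Maff alone of 15 tested was called in injured nerves (0.84, adjusted p = 0.0478, edgeR), in 7 of 14 alternatives. In contralateral nerves 0 of 13 tested were called (3 at an unadjusted p below 0.05, edgeR). Of all genes, 4.09% were higher and 4.44% lower in injured nerves, and 4.49% and 5.68% in contralateral nerves. The call of Maff was lost without any of the 3 control injured libraries or without RaptorKO injured replicate 1 or 2.

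Transcripts of the kinases and factors upstream of AP-1 were called no more often than genes in general. Of 24 genes of the JNK and ERK pathways, serum response factor and its cofactors, and CREB factors, 23 were tested. With injury 6 were higher and 5 lower in controls (median 0.06), and 7 were higher and 4 lower in RaptorKOs (median 0.03), against 32.4% and 32.9% of all genes in controls and 30.5% and 28.5% in RaptorKOs. Elk3, a partner of serum response factor, rose by 1.30 in controls and 1.51 in RaptorKOs on the log2 scale, while Mapk3, which encodes ERK1, fell by 1.15 and 1.07. Mrtfb, a cofactor of serum response factor, was the single gene called between genotypes in injured nerves (0.62, adjusted p = 0.0145, edgeR). The call was lost without control injured replicate 2 (adjusted p = 0.0681, edgeR). In contralateral nerves 0 of the 23 were called. Of all genes, 4.09% were higher and 4.44% lower in injured nerves, and 4.49% and 5.68% in contralateral nerves.

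Of 9 SC repair genes known from c-Jun knock-outs, 7 were tested with injury. In controls 6 were higher and 1 (Cdh2) lower, with a median log2 fold change of 5.30, and in RaptorKOs 5 were higher and 0 lower, with a median of 4.83. Over all genes, 32.4% were higher and 32.9% lower in controls, and 30.5% and 28.5% in RaptorKOs. Gdnf, a neurotrophic factor gene, had 67.9 ± 3.78 CPM in control injured and 58.9 ± 10.9 CPM in RaptorKO injured nerves (SD, n = 3 each), and the log2 difference of -0.18 was not called (adjusted p = 0.533, edgeR). Runx2 had 138 ± 17.1 and 117 ± 11.4 CPM, also not called (-0.22, adjusted p = 0.342, edgeR). Shh had 215 ± 14.1 and 151 ± 51.3 CPM (-0.49, adjusted p = 0.182, edgeR). Lif, a cytokine gene, was lower in RaptorKO injured nerves with 17.1 ± 2.58 against 32.7 ± 4.23 CPM (log2 fold change -0.91, SE 0.169, adjusted p = 0.00796, edgeR). Cdh2, which encodes N-cadherin, was lower in RaptorKOs in injured (-0.48, called in 10 of 14 alternatives) and in contralateral nerves (-1.37, called in all 15). The injured call of Cdh2 was lost without control injured replicate 1 or 2 or RaptorKO injured replicate 1 or 3. Of the 7 tested in injured nerves 2 were thus called lower and 0 higher, against 4.44% and 4.09% of all genes. In contralateral nerves 4 were tested, of which 1 was higher in RaptorKOs (Ngfr, 0.81) and 1 lower (Cdh2), against 4.49% and 5.68%.

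Of 16 genes commonly described as AP-1 responsive, 12 were tested with injury in controls and 13 in RaptorKOs. In controls 9 were higher and 2 lower, with a median of 3.04, and in RaptorKOs 10 were higher and 1 lower, with a median of 2.84. Over all genes, 32.4% were higher and 32.9% lower in controls (median -0.002), and 30.5% and 28.5% in RaptorKOs (median 0.028). Timp1, an inhibitor of matrix proteases, had 2.38 ± 0.959 CPM in control contralateral and 183 ± 12.9 CPM in control injured nerves (SD, n = 3 each), and 2.97 ± 0.708 CPM (n = 4) and 206 ± 10.8 CPM (n = 3) in RaptorKOs. Spp1, which encodes osteopontin, fell by 0.86 and 0.94 on the log2 scale. Between genotypes 1 of 13 was higher (Plau, 1.03, adjusted p = 0.00858, edgeR) and 1 lower (Spp1, -0.62, adjusted p = 0.0166, edgeR, lost without control injured replicate 2 or RaptorKO injured replicate 1) in injured nerves, with a median of 0.01. Of all genes there, 4.09% were higher and 4.44% lower. In contralateral nerves 2 of 9 were higher in RaptorKOs (Ccnd1, 0.59, and Cd44, 0.54) and 1 lower (Hmox1, -0.67), against 4.49% and 5.68%. Ccnd1 was called in all 15 alternatives, Cd44 in 11, and Hmox1 in 13.

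The genes with a pattern over the 13 libraries most like that of a member were sought among 12743 genes. The members, the genes on the lists above, and Rptor were left out of this search. Likeness was measured by the root mean square difference of log2 CPM, each gene set relative to its own mean. For Jun the closest were Srxn1 (0.200), Pfkfb4 (0.223), and Tenm3 (0.234). Srxn1, which encodes the antioxidant enzyme sulfiredoxin, had 30.9 ± 2.62 CPM in control contralateral and 212 ± 13.6 CPM in control injured nerves (SD, n = 3 each). For Atf3 the closest were Aunip (0.344), Spc25 (0.370), and Syt4 (0.399). Syt4, a synaptotagmin gene, was like Atf3 called lower in RaptorKO contralateral nerves (13.1 ± 1.98 CPM, n = 4, against 24.8 ± 2.36 CPM, n = 3, adjusted p = 0.00414, edgeR). For Egr1 they were Slco2b1 (0.236), B3galnt1 (0.238), and Col1a1 (0.250), of which Slco2b1 and Col1a1 were also called higher in RaptorKO injured nerves (0.73 and 0.57 on the log2 scale). The measure is over libraries that share their groups, so it holds the injury and genotype differences as well as the spread within groups. Genotype calls that these genes share with a member are thus partly built in by the choice.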

How the data were processed

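RNA from 13 nerves was sequenced with 1 library per nerve. Per the labels and the methods of the study, the authors trimmed reads with Trimmomatic, aligned them to GRCm38, quantified genes with RSEM 1.2.22, and deposited its expected counts per gene. These estimated counts, not whole for 24.93% to 27.95% of nonzero values per library, were rounded. Of 40787 genes, 40634 were matched by gene ID to GENCODE M21. Groups came from the labels. The crush was unilateral, the study sequenced the corresponding contralateral nerves, and the titles share numbers within a genotype, so same-numbered nerves of a genotype were taken as 1 mouse. Both libraries of control 3 were also the only ones with many Xist counts. Deviations from group means were correlated across 12851 genes. Between nerves taken as 1 mouse the correlation was 0.067, 0.13, and 0.305 in controls and -0.024, 0.211, and 0.168 in RaptorKOs. Between nerves of different numbers it was -0.226 to 0.136 in controls and -0.298 to 0.137 in RaptorKOs. Control injured 1 correlated best with contralateral 2 (0.136), and RaptorKO contralateral 1 with injured 3 (0.137), so these values do not settle the pairing. The main fits had no block. Across genotypes a number marks different mice.

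The software was edgeR 4.0.16, DESeq2 1.42.0, and limma 3.58.1 under R 4.3.3, and Python 3.11.15 with scipy 1.17.1 and matplotlib 3.10.9. Quasi-likelihood tests with TMM scaling were fitted to all genes with 50 counts or more in at least 2 libraries, separately for each comparison, and adjusted over all of them by the Benjamini-Hochberg method. The study's own exact test in edgeR, other scalings and filters, a common fit, a replicate block, and leaving out libraries were tried as alternatives. Log2 CPM used a prior count of 2. CPM per kb divides CPM by the summed exon length of GENCODE M21. Exact (Clopper-Pearson) 95% intervals of count ratios cover counting error only. Scripts were tested on simulated data. The members, the lists, and the rule for named genes (all members, up to 3 called genes per list, comparison, and direction whose groups did not overlap, and the 3 most similar genes for Jun, Atf3, and Egr1) were chosen with earlier results of these data known. Some genes were named beyond that rule, such as the repair genes that were not called. Some items are not reported here.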

Additional observations from a re-analysis of the deposited data

Results flagged for a closer look

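Of 98 further genes on the pathway lists that were tested for an interaction, 9 had an injury effect that differed between genotypes (edgeR's quasi-likelihood test without a replicate block). Of all 12851 genes in that fit, 1.07% were called with a more positive and 1.41% with a more negative injury effect in RaptorKOs. The difference of the log2 fold changes, RaptorKO minus control, was 1.39 for Klf4, 1.13 for Klf2, 1.07 for Ccn2, and 0.69 for Rhob among the immediate early genes and 0.62 for Mrtfb among the upstream genes. It was -0.93 for Ngfr and 0.89 for Cdh2 among the repair genes and -0.66 for Ccnd1 and -0.69 for Cd44 among the AP-1 responsive genes. Ngfr, Ccnd1, and Cd44 were called higher in RaptorKO contralateral nerves (log2 fold change 0.81, 0.59, and 0.54). Between injured groups these genes were not called (-0.12, -0.08, and -0.15). Klf4, Klf2, Ccn2, Rhob, and Mrtfb were called higher in RaptorKO injured nerves and not called between contralateral groups. Cdh2 was called lower in RaptorKOs in injured and in contralateral nerves. In the interaction, Ngfr was called in all 20 alternatives, Klf4, Rhob, and Ccnd1 in 19, Cdh2 in 17, Cd44 in 12, Klf2 and Ccn2 in 9, and Mrtfb in 8. Klf2 lost the call without control injured replicate 1 or 2, any control contralateral replicate, RaptorKO injured replicate 1 or 2, RaptorKO contralateral replicate 2, 3, or 4, or both libraries of control replicate 3. Ccn2 lost it without the same libraries, except for RaptorKO contralateral replicate 1 in place of 2. Mrtfb lost it without any control library, RaptorKO injured replicate 2 or 3, RaptorKO contralateral replicate 1, 2, or 3, or both libraries of control replicate 3. Cd44 lost it without control injured replicate 1 or 2, control contralateral replicate 2 or 3, RaptorKO injured replicate 1 or 2, RaptorKO contralateral replicate 1, or both libraries of control replicate 3. Klf4 and Rhob lost it without both libraries of control replicate 3, and Ccnd1 without control contralateral replicate 2. Cdh2 lost it without control injured replicate 2, without control contralateral replicate 2, and without both libraries of control replicate 3. Of the cell type markers, 3 of 8 endothelial and 2 of 8 pericyte and smooth muscle markers had a called, more positive injury effect in RaptorKOs. For SC and macrophage markers 1 of 10 each had a more negative one. The part of these cells in the 9 differences was not tested. In the only group with more than 3 libraries, RaptorKO contralateral nerves, no member had a library far from the others by Dixon's criterion (10 members checked).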

How the results depend on the processing

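Each of 43 tested log2 fold changes of members was recomputed under 14 to 20 alternatives, 681 values in all, of which 641 kept direction and call, 8 lost a call, 8 gained one, and 24 changed sign. The values that changed sign were those of uncalled members. For Jund the log2 fold change with injury was 0.0835 in controls and 0.0665 in RaptorKOs on total counts, where the median of all tested genes lay at 0.199 and 0.186. Its interaction was -0.0118 with DESeq2, -0.0115 with median-of-ratios size factors, -0.0166 on total counts, -0.000929 with filterByExpr, and -0.0438 with a replicate block, and -0.0874 to 0.0945 without 1 library or control replicate 3 (-0.00443). Without 1 library, the contralateral genotype difference was -0.0981 to 0.222 for Jun, -0.17 to 0.0638 for Junb, -0.277 to 0.0627 for Fos, and -0.175 to 0.0263 for Fosl2, and the injured one was -0.743 to 0.0301 for Egr3. The cause was not tested.

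The number of members called higher in RaptorKO injured nerves was 2 with the exact test, DESeq2, or total counts, 0 in a joint fit of the 13 libraries or with the replicate block, and 0 to 1 without 1 library. The number called lower in RaptorKO contralateral nerves was 0 to 1 without 1 library, namely 0 without control contralateral replicate 1 or 3. The counts of 8 and 7 members higher with injury stayed within 1 of these values. Per library rather than per kb, the mean place by level moved most for Fosl2, from 5 to 2.

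A replicate block changed the calls of 2 members in the paired injury comparisons and the interaction, Egr3 with injury in RaptorKOs and Atf3 in the interaction (1 member with a more positive injury effect), and among the other listed genes those of Mafk (-0.36, adjusted p = 0.0458, edgeR) and Zfp36l1 (0.33, adjusted p = 0.0205, edgeR) with injury in RaptorKOs and Per1 in the interaction (0.55, adjusted p = 0.0494, edgeR). Between genotypes the libraries share only a number, with correlations of 0.027, 0.014, and -0.049 in injured and 0.072, 0.254, and 0.301 in contralateral nerves, and not every library correlated best with its own number. There a replicate block gave 1 member higher in RaptorKO contralateral nerves (Egr1, 0.60, adjusted p = 0.0372, edgeR) and no call of Egr1 in injured nerves (adjusted p = 0.0624, edgeR). The block changed no other call of a member.

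With 3 or 4 libraries per group, leaving out single libraries ended the calls of Egr1 between genotypes in injured and of Atf3 in contralateral nerves, and the filter of 50 counts left out Fosb.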
